A study of Mus musculus with 5 samples.

Results

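The cyclins, the cyclin-dependent kinases (CDKs), the Cdc25 phosphatases and the E2F transcription factors were examined in mouse 3T3-L1 adipocytes whose precursors had met human myeloma cells. Members were chosen by a rule on gene symbols, with earlier results of these data known. They were the cyclins with a letter and a number in their name, the numbered CDKs, *Cdc25a* to *Cdc25c* and *E2f1* to *E2f8*, with *Ccng1* set aside, and where a gene had several probe sets the brightest on average was taken. This gave 42 of the 19505 genes named on the array. *Ccnd1*, *Ccnb1*, *Cdk9* and *Cdk12* are not analysed here, and cyclins without a number such as *Ccnc*, *Ccnh* and *Ccnk* fell outside the rule. One symbol that the rule took, *Ccnb1ip1*, belongs to a ubiquitin ligase of meiosis and not to a cyclin.

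RNA of 3T3-L1 cells, an established line of mouse preadipocytes, was measured on 5 Clariom S Mouse arrays. In 3 samples (MM-3T3-L1s) the confluent preadipocytes had shared RPMI-1640 medium with MM.1S cells, a human multiple myeloma line, across a transwell membrane for 48 h. In 2 control samples they had been kept in that medium alone. All 5 samples were then washed and taken through 7 days of adipogenic differentiation with IBMX, dexamethasone and insulin, so that the RNA came from cells that had no myeloma cells beside them during differentiation. Nothing in the labels says that the replicates were separate cultures, so the p-values reflect no more than the scatter among these 5 samples, which may be technical, and their small number limits the precision.

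As background, a CDK is inactive until it binds a cyclin. D-type cyclins with Cdk4 or Cdk6, then cyclin E and cyclin A with Cdk2, phosphorylate the retinoblastoma proteins and free the activating E2Fs, which turn on the genes of DNA replication. Cyclin A and cyclin B with Cdk1 drive mitosis once a Cdc25 phosphatase has removed the inhibitory phosphates. A separate branch of the family (cyclins T, L, C, H and K with their kinases) phosphorylates RNA polymerase II and its partners and serves transcription. Confluent 3T3-L1 preadipocytes re-enter the cell cycle for some rounds of division after the hormonal cocktail is added, and leave it again before they fill with lipid.

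The values are log2 signals that the authors had normalized by robust multi-array averaging. A level of 3.59, the 95th percentile of 1450 receptor genes of smell and taste, served as a background level, and 36 of the 42 members lay above it by their mean. The exceptions were *Ccna1*, *Ccnb3*, *Cdk15*, *Ccnb1ip1*, *Cdc25c* and *E2f2*. Of 18 adipocyte marker genes, 17 lay above it, with *Fabp4*, the fatty acid binding protein of adipocytes, at 12.59 in MM-3T3-L1s and 12.27 in controls. Of 12 plasma and B cell markers, 10 did not, *Tnfrsf17*, *Mzb1* and *Jchain* among them. The 2 that did were *Sdc1* (7.55 in MM-3T3-L1s and 7.50 in controls) and *Irf4* (4.29 and 3.89). The mean log2 value of the 12 plasma and B cell markers was 3.23 to 3.24 in MM-3T3-L1s and 3.06 to 3.11 in controls. Most of the 12 were not above the background level, so this is not a measured difference. The array is designed for mouse genes, so these values cannot show whether RNA of the human MM.1S cells was present. Pearson's r between pairs of arrays, taken across probe sets, was 0.985 to 0.993, and the 4 pairs with MM.1S replicate 3 had the lowest values.

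Few members differed between the groups, and their shares were near those of the whole array. By limma's moderated test, 2 of 42 members were higher in MM-3T3-L1s at an unadjusted p of 0.05 or less (*Cdk3* and *Cdk14*), a share of 4.76% against 3.48% of all 22206 probe sets. On the lower side there were also 2 (*Ccna2* and *Cdc25c*), again 4.76%, against 4.11% of all probe sets. With the study's added limit of a fold change above 1.5, no member was higher, where 0.910% of all probe sets were, and *Cdc25c* was the single lower one, where 1.44% were. After Benjamini-Hochberg adjustment over all probe sets limma left no member, with adjusted p-values of 0.573 to 0.999, and no other probe set either, the smallest adjusted p of the array being 0.166. The 3 MM.1S arrays were all higher than the 2 controls for 4 members (9.52%, against 11.9% of all probe sets) and all lower for 7 (16.7%, against 12.2%), and in the other 31 the groups overlapped or shared a value. Of the probe sets above the background level, 10.6% had all MM.1S arrays higher and 17.2% all lower. At an unadjusted p of 0.05 or less, 3.17% of them were higher and 5.82% lower. For 1 gene at a time, permuting 3 arrays against 2 exactly could reach no two-sided p under 0.1.

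**Figure D1:**
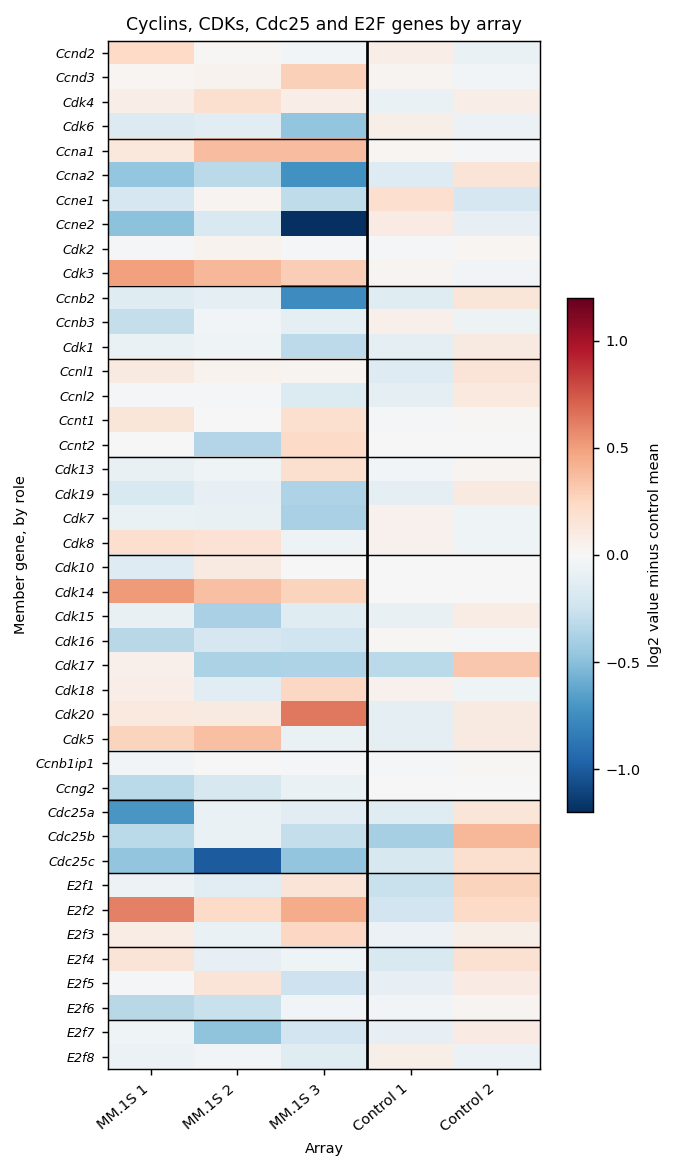
Log2 value of each of the 42 members minus its control mean (colour scale), with 1 column per array, the 3 MM.1S arrays left of the 2 control arrays and role groups parted by lines. *Ccne2* and *Cdc25c* hold the darkest blue cells, at MM.1S replicates 3 and 2, and most rows show no step at the line between the groups.

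The intervals show how large a difference the scatter among these 5 samples leaves room for, where a gene lies above the background level. That scatter may be technical, so the intervals do not bound the effect of MM.1S exposure. For 38 members the 95% interval of the log2 fold change included 0. For 26 members it lay wholly inside the range from 1.5-fold lower to 1.5-fold higher, which is 0.58 on the log2 scale either way. These 26 hold all 8 transcriptional members and 6 of the 13 cell cycle cyclins and kinases. They also hold *Ccnb3*, *Cdk15* and *Ccnb1ip1*, which lay below the background level on all arrays, and *Ccnb3* is among those 6. For these dim genes a narrow interval does not limit a change.

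The D-type cyclins and *Cdk4*, which open the cycle, differed little. *Cdk4*, the main kinase partner of D-type cyclins, read 9.31, 9.42 and 9.31 in MM-3T3-L1s, against 9.15 and 9.31 in controls. MM.1S replicates 1 and 3 shared a value with a control, and the log2 fold change was 0.12 (95% interval -0.17 to 0.40). *Ccnd2*, one of the D-type cyclins that carry growth factor signals to the cycle, read 9.30, 9.07 and 9.03 in MM-3T3-L1s, against 9.14 and 8.99 in controls. *Ccnd3*, a D-type cyclin that remains abundant in many differentiated cells, read 9.17, 9.18 and 9.43 in MM-3T3-L1s, against 9.18 and 9.11 in controls. The arrays of the groups were interleaved for both cyclins, with log2 fold changes of 0.07 and 0.12. *Cdk6*, the other D-type kinase, read 7.53, 7.56 and 7.22 in MM-3T3-L1s, against 7.77 and 7.62 in controls. All MM.1S arrays lay below both controls, but by 0.06 only, and the log2 fold change of -0.25 (SE 0.15) did not reach the threshold and was -0.15 without MM.1S replicate 3.

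Among the cyclins of the G1/S transition and S phase, *Ccna2* passed the threshold and *Ccne2* did not. *Ccna2* encodes cyclin A2, which works with Cdk2 in S phase and with Cdk1 toward mitosis. It read 5.89, 6.04 and 5.63 in MM-3T3-L1s, against 6.20 and 6.52 in controls. The groups lay 0.16 apart, and *Ccna2* was 1.42-fold lower, at -0.50 on the log2 scale (SE 0.17, unadjusted p = 0.0275, adjusted p = 0.611, limma). The call was lost when any of MM.1S replicate 1, MM.1S replicate 3 or control replicate 2 was left out, with log2 fold changes of -0.52, -0.39 and -0.35.

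*Ccne2*, one of the E-type cyclins that activate Cdk2 at the start of S phase, read 5.42, 5.74 and 4.72 in MM-3T3-L1s, against 6.02 and 5.82 in controls. MM.1S replicate 3 stood far below the other arrays of its group, whose SD was 0.52, and the log2 fold change was -0.62 on the log2 scale (SE 0.30, unadjusted p = 0.0871, adjusted p = 0.677, limma). It was -0.34 without MM.1S replicate 3, which did not pass, and -0.85 without MM.1S replicate 2, which did. Its paralog *Ccne1* read 6.07, 6.30 and 5.97 in MM-3T3-L1s, against 6.47 and 6.07 in controls, and the groups overlapped. *Cdk2*, their kinase, read 5.74, 5.81 and 5.74 in MM-3T3-L1s, against 5.74 and 5.80 in controls. The arrays of both groups lay within 0.1 of each other, and the 95% interval of the log2 fold change was -0.26 to 0.26.

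*Cdk3*, a kinase close to Cdk2 that carries a premature stop in most laboratory mice, read 4.77, 4.67 and 4.58 in MM-3T3-L1s, against 4.31 and 4.24 in controls. The groups lay 0.26 apart, and *Cdk3* had the smallest p of all members, with 0.39 on the log2 scale (SE 0.11, unadjusted p = 0.0148, adjusted p = 0.573, limma). Without control replicate 2 it was 0.36 and no longer passed. *Ccna1*, the cyclin A of male germ cells, read 2.21, 2.45 and 2.45 in MM-3T3-L1s, against 2.11 and 2.06 in controls, so that no array of either group reached the background level and no fold is given.

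None of the 3 mitotic members passed the threshold. *Cdk1*, the kinase that brings cells into mitosis, read 7.12, 7.16 and 6.89 in MM-3T3-L1s, against 7.10 and 7.31 in controls. *Ccnb2*, a B-type cyclin that binds it, read 6.005, 6.047 and 5.397 in MM-3T3-L1s, against 6.005 and 6.298 in controls. The groups overlapped for both, and MM.1S replicate 3 was the lowest array of each. Their log2 fold changes were -0.15 (SE 0.14) and -0.33 (SE 0.23), and without that array -0.07 and -0.13. *Ccnb3*, a cyclin of germ cells, lay below the background level on all arrays. Of the 13 cell cycle cyclins and kinases, 6 had their lowest value of the 5 arrays in MM.1S replicate 3.

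The promoters of *Cdk1* and *Ccnb2* are shown because they hold elements through which the E2F and MuvB complexes are known to time genes of this kind, *Cdk2* as a kinase of the same group whose level hardly differed, and *Cdk14* as a member at p of 0.05 or less for which the table has a promoter. Sequences are from RefSeq (build GRCm38.p6), 250 bases before to 50 after the start of the gene, 5′ to 3′ on the gene's own strand, which is the minus strand for all 4. Capitals mark exact matches on either strand to an E2F motif (TTTCCCGC, TTTGGCGC, TTTCGCGC or TTTGCCGC), to a cell cycle homology region or CHR (TTTGAA or TTCGAA), or to a CCAAT box (CCAAT), and no match overlapped one of another motif. The windows are chr10:69352863-69353162 for *Cdk1*, chr9:70421505-70421804 for *Ccnb2*, chr10:128705002-128705301 for *Cdk2* and chr5:5380202-5380501 for *Cdk14*.
Cdk1: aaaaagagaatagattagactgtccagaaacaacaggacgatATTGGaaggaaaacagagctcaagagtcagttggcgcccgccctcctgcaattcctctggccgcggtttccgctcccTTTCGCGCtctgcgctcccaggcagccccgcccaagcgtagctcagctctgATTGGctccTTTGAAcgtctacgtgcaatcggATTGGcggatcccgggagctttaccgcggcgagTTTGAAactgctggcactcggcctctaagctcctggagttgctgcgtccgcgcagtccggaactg
Ccnb2: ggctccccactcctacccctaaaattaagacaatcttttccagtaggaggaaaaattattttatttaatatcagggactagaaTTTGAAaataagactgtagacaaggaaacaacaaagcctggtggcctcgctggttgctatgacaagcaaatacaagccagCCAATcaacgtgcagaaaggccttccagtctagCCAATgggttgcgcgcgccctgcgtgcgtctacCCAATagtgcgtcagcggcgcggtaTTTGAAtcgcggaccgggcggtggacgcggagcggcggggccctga
Cdk2: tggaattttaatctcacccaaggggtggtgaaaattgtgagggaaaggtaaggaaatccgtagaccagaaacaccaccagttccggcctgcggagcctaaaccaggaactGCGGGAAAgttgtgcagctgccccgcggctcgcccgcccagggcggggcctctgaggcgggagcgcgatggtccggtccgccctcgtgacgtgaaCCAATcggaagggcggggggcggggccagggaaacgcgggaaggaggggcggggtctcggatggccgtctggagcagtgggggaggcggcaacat
Cdk14: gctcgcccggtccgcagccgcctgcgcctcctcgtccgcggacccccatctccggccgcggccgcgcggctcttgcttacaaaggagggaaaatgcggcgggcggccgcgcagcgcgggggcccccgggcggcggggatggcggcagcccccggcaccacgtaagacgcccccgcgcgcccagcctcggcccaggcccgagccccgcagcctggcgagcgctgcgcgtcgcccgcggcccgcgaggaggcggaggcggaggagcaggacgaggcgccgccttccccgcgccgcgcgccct
*Cdk1* holds 1 E2F match, 2 CHR and 3 CCAAT boxes, and *Ccnb2* holds 2 CHR and 3 CCAAT boxes. *Cdk2* holds 1 E2F match and 1 CCAAT box, and *Cdk14* holds none of the letters searched. Over the 36 promoters that the table gives for 32 of the members, 16.7% held an E2F match, 19.4% a CHR and 47.2% a CCAAT box, against 2.26%, 19.2% and 37.4% of all 32851 promoters. In the 7 promoters of transcriptional members there were 0 with an E2F match and 0 with a CHR, and among the 10 of cell cycle cyclins and kinases there were 2 of each. The 10 promoters of E2F factors and Cdc25 phosphatases held more, with an E2F match in 4 and a CHR in 4. A match describes the letters only.

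The Cdc25 phosphatases remove the phosphates that hold CDKs inactive, and 1 of the 3, *Cdc25c*, passed the threshold. *Cdc25c*, which acts on Cdk1 at mitosis, read 3.44, 2.91 and 3.44 in MM-3T3-L1s, against 3.72 and 4.10 in controls. All 3 MM.1S arrays lay below the background level of 3.59 and both controls above it, so that the size of the difference was not measured. With the MM.1S arrays set to that level, the mean of *Cdc25c* was 1.25-fold lower than the control mean. This value leaves out the scatter of the 2 controls, of which replicate 1, at 3.72, lay nearer that level, and it is not a lower bound. The fit on the values as deposited gave -0.65 on the log2 scale (SE 0.22, unadjusted p = 0.0259, adjusted p = 0.606, limma), which stood at -0.46 and missed the threshold without control replicate 2, and with dim probe sets left out *Cdc25c* was not tested. *Cdc25a*, the G1/S phosphatase, read 4.03, 4.65 and 4.60 in MM-3T3-L1s, against 4.59 and 4.88 in controls. *Cdc25b*, which starts Cdk1 activation in G2, read 4.30, 4.54 and 4.33 in MM-3T3-L1s, against 4.22 and 5.01 in controls. The groups overlapped for both, and the 2 controls of *Cdc25b* lay on either side of all its MM.1S arrays, so that its log2 fold change was -0.62 without control replicate 1 and 0.16 without control replicate 2.

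None of the 8 E2F factors passed the threshold in either direction. Their median log2 fold change was -0.03, beside 0.01 for all probe sets and -0.02 for those above the background level. *E2f1*, an activator, read 3.94, 3.87 and 4.16 in MM-3T3-L1s, against 3.74 and 4.27 in controls. The MM.1S arrays lay between the controls. *E2f3*, an activator with 2 probe sets, had log2 fold changes of 0.09 and 0.07 in them. *E2f2*, the other activator, read 3.30, 2.92 and 3.14 in MM-3T3-L1s, against 2.46 and 2.92 in controls. All 5 arrays were below the background level, so that no fold is given.

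*E2f4*, the main repressor of resting cells, read 6.85, 6.60 and 6.64 in MM-3T3-L1s, against 6.51 and 6.88 in controls. Its mean was 6.70 in MM-3T3-L1s and 6.70 in controls (95% interval of the difference -0.39 to 0.39). *E2f5* and *E2f6*, the other repressors measured, had log2 fold changes of -0.04 and -0.21. *E2f7*, an atypical factor that represses E2F targets late in S phase, read 5.47, 5.04 and 5.29 in MM-3T3-L1s, against 5.43 and 5.61 in controls. *E2f8*, its close relative, read 3.65, 3.69 and 3.58 in MM-3T3-L1s, against 3.79 and 3.65 in controls. The groups overlapped or shared a value for each of these 5 genes.

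**Figure D2:**
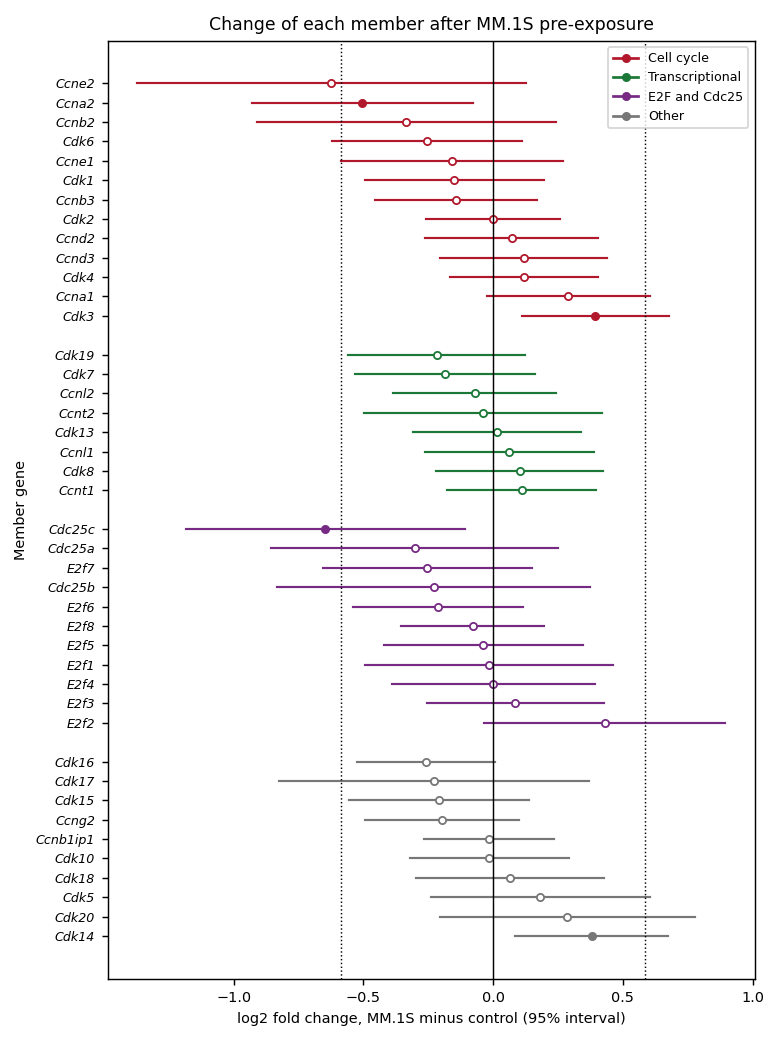
Log2 fold change (MM.1S minus control) of each member with its 95% interval from limma, grouped by role, with filled points at an unadjusted p of 0.05 or less and dotted lines at a fold change of 1.5, and for the 6 members not above the background level the plotted difference is not a measured fold. The 8 transcriptional members lie between -0.22 and 0.11, and the 13 cell cycle members spread from -0.62 to 0.39.

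The 8 transcriptional cyclins and kinases spanned a narrower range of log2 fold changes than the 13 cell cycle members, but a range widens with the number of genes. The difference between the groups was not tested. The transcriptional members ran from -0.22 (*Cdk19*) to 0.11 (*Ccnt1*), the 13 cell cycle cyclins and kinases from -0.62 (*Ccne2*) to 0.39 (*Cdk3*). Among 11 cyclins and kinases outside the rule, 3 had a log2 fold change above 0 and 8 below, the lowest being *Cdk11b* at -0.44 (SE 0.47). The median was -0.14 for the cell cycle members and -0.01 for the 8 transcriptional members, with a median standard error of 0.13 in each group. The cell cycle members include *Ccna1* and *Ccnb3*, which lay below the background level, and their median was the value of *Ccnb3*. With dim probe sets left out the cell cycle median was -0.15. The median log2 fold change was 0.01 for all probe sets and -0.02 for those above the background level. At an unadjusted p of 0.05 or less, 1 cell cycle member was higher (7.69%) and 1 lower (7.69%), and 0 transcriptional members were either. Of all probe sets 3.48% were higher and 4.11% lower, so that 0 of 8 says little about the transcriptional members. Array by array, the median deviation of the cell cycle members from their control mean was -0.08, 0.01 and -0.11 in MM-3T3-L1s, against 0.04 and -0.04 in controls. For the transcriptional members it was -0.01, -0.04 and -0.02 in MM-3T3-L1s, against -0.02 and 0.02 in controls. In neither group were the MM.1S arrays all below the controls. Without MM.1S replicate 3 the medians were -0.07 for the cell cycle members and -0.05 for the transcriptional members. The transcriptional median was above 0 without MM.1S replicate 2 (0.06), without control replicate 2 (0.05), without *Cdk7* (0.01) and after a further quantile normalization (0.06).

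*Ccnt1*, the cyclin of the elongation factor P-TEFb, read 7.56, 7.41 and 7.61 in MM-3T3-L1s, against 7.40 and 7.44 in controls. *Ccnt2*, its paralog, read 6.73, 6.38 and 6.96 in MM-3T3-L1s, against 6.73 and 6.73 in controls. MM.1S replicates 2 and 3 of *Ccnt2* lay on opposite sides of the controls. *Ccnl1*, a cyclin tied to splicing, read 8.17, 8.11 and 8.09 in MM-3T3-L1s, against 7.91 and 8.21 in controls. Its paralog *Ccnl2* had a log2 fold change of -0.07, and the groups overlapped for all 4 transcriptional cyclins.

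*Cdk7*, which serves both branches as the kinase of the CDK-activating complex and of TFIIH, read 5.93, 5.92 and 5.62 in MM-3T3-L1s, against 6.06 and 5.96 in controls. It was the single transcriptional member whose groups did not overlap, and they lay 0.03 apart. *Cdk8*, a kinase of the Mediator complex, read 7.51, 7.49 and 7.25 in MM-3T3-L1s, against 7.37 and 7.27 in controls. The log2 fold change of *Cdk8* was 0.10 (SE 0.13) and that of *Cdk19*, its paralog in Mediator, -0.22 (SE 0.14), and the difference between the paralogs was not tested. *Cdk13*, a kinase of elongating polymerase, had a log2 fold change of 0.01.

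Of the other kinases, *Cdk14* passed the threshold. It encodes a kinase that binds cyclin Y at the plasma membrane and phosphorylates the Wnt coreceptor LRP6. *Cdk14* read 7.87, 7.73 and 7.64 in MM-3T3-L1s, against 7.36 and 7.37 in controls. The groups lay 0.26 apart, and it was 1.30-fold higher, at 0.38 on the log2 scale (SE 0.12, unadjusted p = 0.0200, adjusted p = 0.590, limma). It was 0.37 without control replicate 1 and 0.39 without control replicate 2, and passed in neither case. *Cdk16*, a kinase of the same subfamily that also binds cyclin Y, read 8.62, 8.75 and 8.71 in MM-3T3-L1s, against 8.97 and 8.94 in controls. The groups lay 0.19 apart in the opposite direction, and *Cdk16* missed the threshold, with -0.26 on the log2 scale (SE 0.11, unadjusted p = 0.0552, adjusted p = 0.661, limma). *Ccny*, which encodes cyclin Y, is outside the rule and had a log2 fold change of 0.10 (SE 0.13).

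*Cdk5*, which is activated by p35 and not by a cyclin and phosphorylates PPARγ in adipocytes, read 7.74, 7.83 and 7.38 in MM-3T3-L1s, against 7.36 and 7.57 in controls. The groups overlapped, and *Cdk5r1*, which encodes p35, had a log2 fold change of -0.19 (SE 0.18). *Ccng2*, an unconventional cyclin of resting cells, read 8.01, 8.14 and 8.25 in MM-3T3-L1s, against 8.33 and 8.32 in controls. The groups lay 0.08 apart, with a log2 fold change of -0.20 (SE 0.12). *Cdk20*, a kinase linked to cilia, read 4.17, 4.16 and 4.68 in MM-3T3-L1s, against 3.95 and 4.16 in controls, and MM.1S replicate 3 stood above the other 4 arrays. Its log2 fold change was 0.29, and 0.11 without that array. *Cdk10*, *Cdk17* and *Cdk18* had log2 fold changes of -0.23 to 0.07 with overlapping groups, and *Cdk15* and *Ccnb1ip1* lay below the background level on all arrays.

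**Figure D3:**
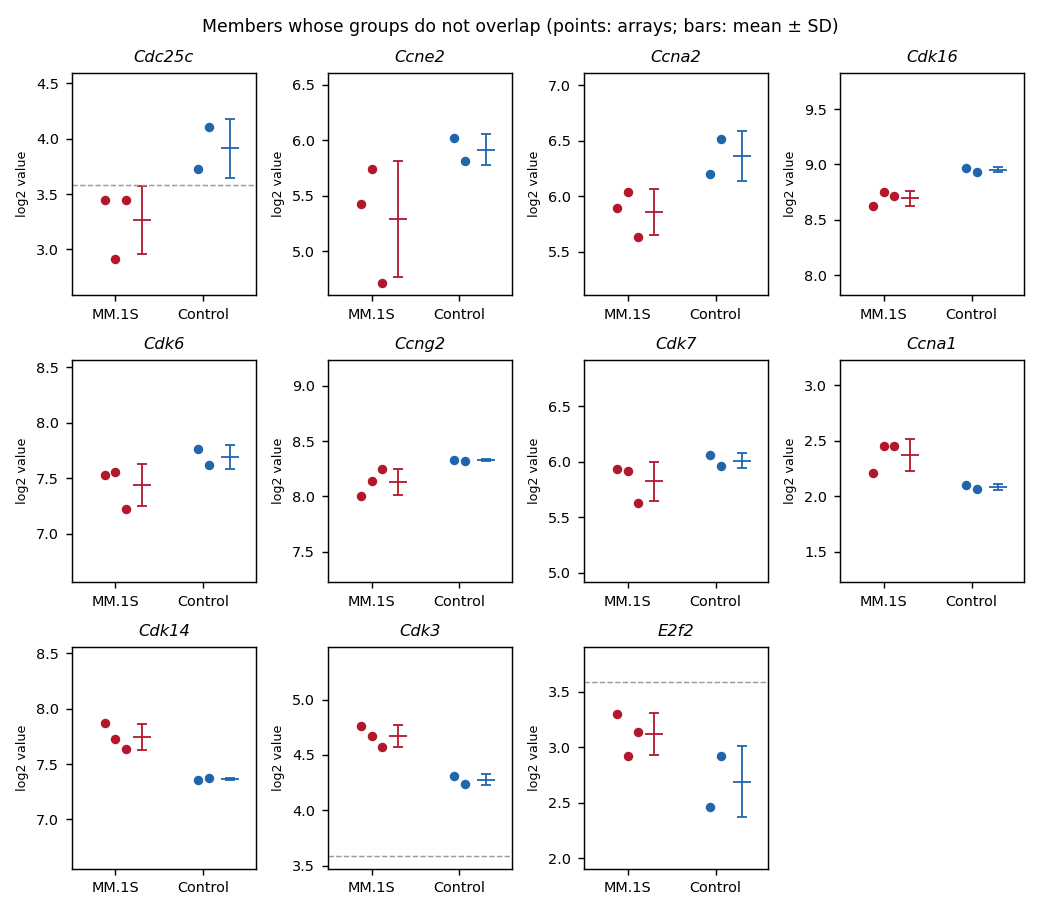
Log2 values of the 11 members whose MM.1S arrays all lay on 1 side of both control arrays, with points for arrays, bars for mean ± SD and a dashed line at the background level where it falls in the panel. All panels span 2 log2 units, and the widest gaps between the groups are those of *Cdc25c* (0.28), *Cdk14* (0.26) and *Cdk3* (0.26).

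Genes that act on the cyclin-CDK core or work with it were compared list by list at an unadjusted p of 0.05 or less. Over all probe sets, 4.11% were lower and 3.48% higher. Among 8 genes of CDK inhibitors, 0 were higher and 1 was lower (12.5%). This was *Cdkn1b*, which encodes p27, the inhibitor of Cdk2 in resting cells, and it read 8.16, 8.17 and 8.55 in MM-3T3-L1s, against 8.73 and 8.89 in controls. All MM.1S arrays lay below both controls, with -0.51 on the log2 scale (SE 0.16, unadjusted p = 0.0206, adjusted p = 0.591, limma). *Cdkn1a*, which encodes p21, stood at a log2 fold change of 0.07 (SE 0.13) and *Cdkn2a*, of the INK4a/ARF locus, at -0.05 (SE 0.12). For 4 of the 8 inhibitors (50%) all MM.1S arrays lay below both controls, against 12.2% of all probe sets and 17.2% of those above the background level. The mean log2 value of the 8 was 7.23 to 7.34 in MM-3T3-L1s and 7.41 to 7.50 in controls. Among 11 genes of the RB family, the DP partners of E2F and the MuvB complex, 0 were higher and 2 were lower at that p (18.2%), *Rbl2*, which encodes the pocket protein p130 of resting cells, at a log2 fold change of -0.44 (SE 0.13), and *Tfdp2*, an E2F partner, at -0.37 (SE 0.13). Among 19 genes of kinases, adaptors and ubiquitin ligases of the core, 0 were higher and 1 was lower (5.26%), *Cdc20*, an activator of the anaphase-promoting complex, at -0.39 (SE 0.12). Among 10 partners of the transcriptional kinases, 1 was higher (10%), *Hexim2*, an inhibitor of P-TEFb, at 0.59 (SE 0.18), and 0 were lower. Among 11 cyclins and kinases outside the rule, 0 passed in either direction.

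Genes downstream of the core were lower in larger shares than all probe sets. Of 32 E2F target genes, 7 were lower at an unadjusted p of 0.05 or less (21.9%, against 4.11% of all probe sets). Of the probe sets above the background level, 5.82% were lower. Among the E2F targets 1 was higher, and their median log2 fold change was -0.12. *Lig1*, the DNA ligase of replication forks, stood at a log2 fold change of -0.67 (SE 0.15), *Mcm6*, of the replicative helicase, at -0.70 (SE 0.23), *Cdt1*, which loads that helicase, at -0.50 (SE 0.16), *Rrm1*, of ribonucleotide reductase, at -0.40 (SE 0.11), and *Ezh2*, a histone methyltransferase, at -0.39 (SE 0.12). *Gins1*, of the same helicase, was the higher gene at 0.55 (SE 0.18). Of 29 genes of the G2/M programme, 8 were lower (27.6%), 0 were higher, and 26 had a log2 fold change below 0, with a median of -0.46. *Cenpe*, a kinetochore motor, stood at a log2 fold change of -0.998 (SE 0.12), *Mad2l1*, of the spindle checkpoint, at -0.79 (SE 0.17), *Kif23*, a motor of cytokinesis, at -0.73 (SE 0.16), *Ttk*, a checkpoint kinase, at -0.75 (SE 0.20), *Anln*, a protein of the cleavage furrow, at -0.59 (SE 0.18), and *Ect2*, which starts that furrow, at -0.84 (SE 0.30). None of these genes passed after adjustment.

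For 16 of the 29 G2/M genes (55.2%) all MM.1S arrays lay below both controls. This held for 12.2% of all probe sets and 17.2% of those above the background level, and also for 4 of the 8 CDK inhibitors (50%). *Cdkn3* and *Cks2*, which are among the 16, were also counted above, in the lists of CDK inhibitors and of kinases and adaptors. The median deviation of the G2/M list from the control mean was -0.44, -0.28 and -0.65 in MM-3T3-L1s, against -0.09 and 0.09 in controls, so that MM.1S replicate 3 was again the lowest array. Without this array the median log2 fold change was -0.36 and 10 of the 29 genes were lower, beside 985 of all 22206 probe sets. Without MM.1S replicate 1, 5 of the 29 were lower, beside 825 of all 22206 probe sets. The list of preadipocyte and fibroblast markers was lower as well, at 8.40 to 8.49 in MM-3T3-L1s and 8.63 to 8.68 in controls (mean log2 value), and its part in these values was not tested. Both lists were chosen with results of these arrays known, so the counts are not independent evidence of a direction. In bulk RNA, fewer cells in cycle and less of an RNA per cell cannot be told apart.

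**Figure D4:**
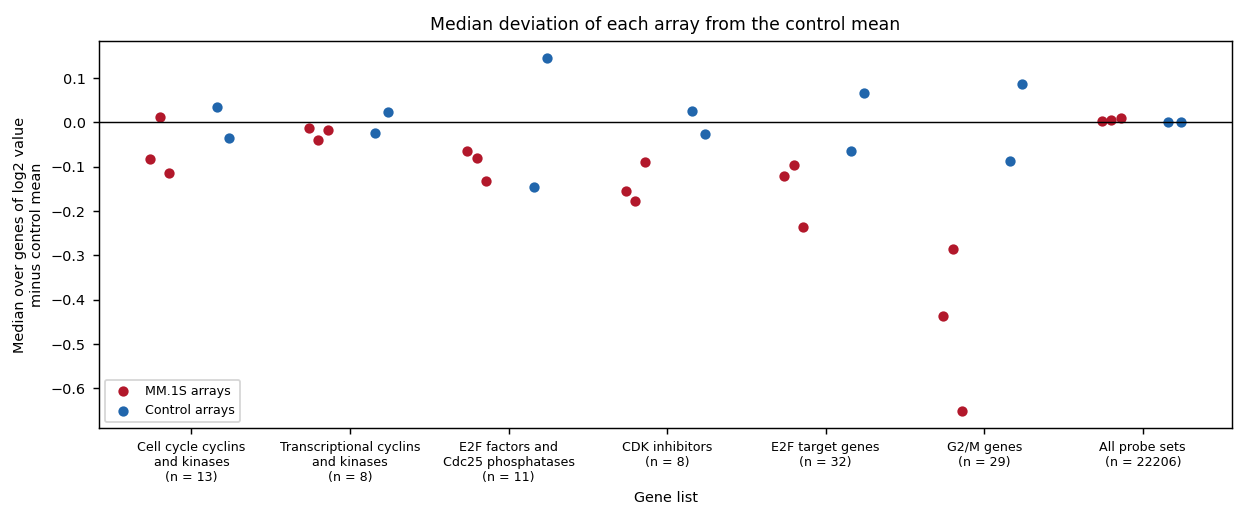
Median over the genes of each list of the log2 value minus the control mean, 1 point per array, MM.1S arrays left of control arrays (with 2 controls, their points mirror each other by construction). The MM.1S arrays of the cell cycle and transcriptional cyclins and kinases lie between -0.11 and 0.01, those of the G2/M genes between -0.65 and -0.28.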

How the data were processed

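RNA from 3 MM-3T3-L1 and 2 control samples was hybridized to 1 Clariom S Mouse array each. The authors summarised the arrays with RMA in Partek Genomics Suite and deposited log2 values. RMA corrects background, brings arrays to 1 distribution and combines probes, so that shifts shared by all genes are not visible. Whether other arrays were normalized with these 5 is not given in the sources used here. All 22206 probe sets were tested. Symbols came from the supplied platform annotation (19572 probe sets with 1 symbol).

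Groups were compared with lmFit and eBayes of limma 3.58.1 in R 4.3.3, with group as the only term (3 residual and 2.79 prior degrees of freedom), two-sided, with Benjamini-Hochberg adjustment over all probe sets, after a test on simulated data. The study called genes at an unadjusted p up to 0.05 with a fold change over 1.5. The named genes were, by rule, members at p of 0.05 or less, the 3 highest and 3 lowest, and a fixed set, and context genes at p of 0.05 or less, at most 6 per list. Other genes named, chiefly in the lists of partners, were chosen after their values were seen. Members and lists were chosen with earlier results of these data known.

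The alternatives were a one-way ANOVA, an intensity trend with a robust prior, leaving out dim probe sets, a further quantile normalization, median centring, a replicate block, array weights, the dimmer probe set of a gene, a fold change of 1.2, other memberships and leaving out each array. Figures were drawn with matplotlib.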

Additional observations from a re-analysis of the deposited data

How the results depend on the processing

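Of 540 values of single members under 13 alternatives, 490 kept their direction and their side of the threshold, 9 lost the call, 9 gained it and 32 changed sign. With the ANOVA, the intensity trend and dim probe sets left out, the fold changes were by construction those of the main comparison. Those values could not change sign. The dimmer probe set of a gene altered *E2f3* alone. The 490 therefore include agreement that was fixed in advance. The count of members lower at the study's thresholds, 1 in the main comparison, was 0 with a one-way ANOVA and 0 with dim probe sets left out, and a limit of 1.2-fold gave 2 lower and 2 higher. It was 0 to 3 with 1 array left out, and the higher count was 0 to 1. At an unadjusted p of 0.05 or less, leaving out 1 array gave 1 to 3 higher and 0 to 3 lower members, and the ANOVA gave 1 lower, *Cdk16*, with *Ccna2* and *Cdc25c* no longer passing. *Cdk16* also passed with an intensity trend, with dim probe sets left out and with array weights.

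The 32 values that changed sign came from 14 members, none of which passed in the main comparison. With 1 array left out, the log2 fold change was -0.012 to 0.15 for *Ccnd2*, -0.078 to 0.055 for *Cdk10*, -0.028 to 0.024 for *Cdk2*, -0.28 to 0.25 for *E2f1*, -0.18 to 0.18 for *E2f4*, -0.17 to 0.11 for *Ccnt2*, -0.072 to 0.068 for *Cdk13*, -0.027 to 0.16 for *Cdk18*, -0.13 to 0.066 for *E2f5*, -0.36 to 0.042 for *Ccne1*, -0.089 to 0.21 for *Ccnl1*, -0.19 to 0.048 for *Ccnl2*, -0.62 to 0.16 for *Cdc25b* and -0.55 to 0.093 for *Cdk17*. It was 0.032 for *Ccnt2*, 0.057 for *Cdk10*, 0.058 for *Cdk2* and 0.0094 for *E2f5* after a further quantile normalization, -0.072 for *Cdk13*, -0.027 for *Cdk18*, 0.0097 for *Cdk2* and 0.066 for *E2f5* with the replicate block, -0.026 for *Cdk13* with array weights and -0.0061 for *E2f4* after median centring.

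The median log2 fold change of the cell cycle members, -0.14, was -0.071 after a further quantile normalization, -0.066 with the replicate block and -0.20 to -0.028 with 1 array left out. That of the transcriptional members, -0.01, was 0.061 after the quantile normalization, -0.048 with the replicate block, -0.038 with array weights, 0.015 without *Cdk7* and -0.065 to 0.058 with 1 array left out, being 0.058 without MM.1S replicate 2 and 0.046 without control replicate 2. That of the E2F and Cdc25 members was -0.25 to 0.057 with 1 array left out, and was 0.057 without control replicate 2. The causes were not tested.

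The deviations of arrays with the same replicate number correlated at -0.03 and 0.06. With 2 controls, whose deviations mirror each other, this cannot show whether the samples were paired. The block gave 2 higher and 2 lower members, and since no control carries number 3 it drops MM.1S replicate 3. In alternatives for the lists of E2F targets and G2/M genes that were chosen after seeing the data, the ANOVA left 4 of 32 E2F targets lower. It left 3 of 29 G2/M genes lower, beside 733 of all 22206 probe sets. After adjustment 2 probe sets of the array passed with the ANOVA, 9 with the intensity trend and 0 with limma, whose unadjusted counts were 772 higher and 912 lower.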

Other observations

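Of 14 preadipocyte and fibroblast markers, 4 were lower in MM-3T3-L1s at an unadjusted p of 0.05 or less (*Postn*, *Dlk1*, *Col3a1* and *Vim*), a share of 28.6% against 4.11% of all probe sets, and 1 was higher (*Pdgfrb*). For 8 of the 14 (57.1%) the MM.1S arrays were all lower than the controls. This held for 12.2% of all probe sets and 17.2% of those above the background level. *Postn*, a matrix protein, stood at a log2 fold change of -0.85 (SE 0.17) and *Dlk1*, a preadipocyte factor, at -0.45 (SE 0.10). Of 18 adipocyte markers, 2 were higher (*Fabp4* and *Dgat2*, 11.1%, against 3.48% of all probe sets) and 3 were lower (*Retn*, *Scd1* and *Fasn*, 16.7%). Of 9 macrophage markers, 1 was higher (11.1%), *Cd14*, a lipopolysaccharide coreceptor, at 0.83 (SE 0.18). By their mean, 4 of the 9 lay above the background level (*Cd14*, *Lyz2*, *Ptprc* and *Fcgr1*), and 5 did not, *Adgre1* and *Csf1r* among them. The list's mean log2 value was 3.98 to 4.05 in MM-3T3-L1s and 3.75 to 3.80 in controls, and 7 of the 9 had a log2 fold change above 0.

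The deposited values held ties between arrays. In 11 of the 42 members (26.2%) at least 2 of the 5 arrays carried the same value, *Cdk2*, *Cdk4* and *Cdc25c* among them, and the share over all probe sets was 27.3%.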
